A study of Mus musculus with 60 samples.

Results

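The mRNAs of cytosolic ribosomal proteins were followed in the mouse hippocampus after a single dose of 3 NMDA receptor antagonists. The genes were taken by name, as every probe of the array whose gene symbol begins with *Rpl* or *Rps* and a digit, without the *Rps6k* kinases and without symbols that contain -ps. This gave 89 of the 45281 probes and 61 of the 19057 genes named on the array, and each gene is given by its brightest probe. Of the 61 genes, 30 code for proteins of the large subunit and 22 for proteins of the small subunit. The other 9 are paralogs, retrocopies and a gene that only carries the name. Under the same naming rule RefSeq lists 85 protein-coding genes, of which 25 had no probe of their name here, among them *Rpl7*, *Rpl10*, *Rps27* and *Rps27a*, so the set is not the whole ribosome.

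Male C57BL/6J mice, 8 to 10 weeks old, received ketamine (20 mg/kg), memantine (15 mg/kg), PCP (phencyclidine, 5 mg/kg) or saline by i.p. injection, or were left naive, and were killed at 1, 2, 4 or 8 h. Hippocampal RNA of 2 mice was combined for every array, and 60 arrays of the Illumina MouseWG-6 v2 type gave 20 groups of 3 separate pools. Values of single mice are therefore not known. To follow the course of the transcriptional response, each drug was compared with saline of the same time, and all 3 drugs were set against the same 12 saline arrays.

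Ribosomal proteins are made in near-equal numbers and assembled with ribosomal RNA in the nucleolus into a large subunit, which joins amino acids, and a small subunit, which reads the mRNA. Most of their mRNAs begin with a C followed by an unbroken run of pyrimidines, the 5′ terminal oligopyrimidine (TOP) tract, through which mTOR signalling sets how much of an abundant and long-lived mRNA is translated. Neurons also carry ribosomes and ribosomal protein mRNAs in dendrites and axons, and the translation of these mRNAs has been studied in connection with synaptic plasticity.

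The start regions of a few of these genes are printed because the shared feature of the family lies there. RefSeq promoters (GRCm38.p6, 250 bases before to 50 after the annotated start) matched 51 of the 61 genes, with 61 promoters in all. Each line below gives 10 bases before and 20 from the annotated start on, 5′ to 3′ on the strand of the gene, and capitals mark a run of C followed by C or T of 5 or more letters that begins no more than 5 bases before the start or within 30 after it. Where the pyrimidines begin earlier, as in *Rpl14*, only the part from the first C within these bounds was marked and counted.
*Rpl27a*, chr7:109519185-109519214, plus strand: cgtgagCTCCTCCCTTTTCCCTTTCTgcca
*Rpl13a*, chr7:45128726-45128755, minus strand: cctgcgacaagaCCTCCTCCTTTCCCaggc
*Rps10*, chr17:27635225-27635254, minus strand: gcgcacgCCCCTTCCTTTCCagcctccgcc
*Rps6*, chr4:86857348-86857377, minus strand: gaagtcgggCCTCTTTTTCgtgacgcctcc
*Rpl14*, chr9:120571507-120571536, plus strand: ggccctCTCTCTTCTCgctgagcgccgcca
*Rps15a*, chr7:118116128-118116157, minus strand: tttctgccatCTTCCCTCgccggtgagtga
*Rpl31*, chr1:39367841-39367870, plus strand: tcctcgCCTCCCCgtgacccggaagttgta
*Rpl24*, chr16:55966265-55966294, plus strand: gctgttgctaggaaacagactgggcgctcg
Such a run of 5 or more letters was found in 78.7% of the 61 promoters, against 41.5% of all 32851 promoters in the same reference, and a run of 7 or more in 52.5% against 16.2%. *Rpl24* has no run in this window, which says only that the letters are not there at the annotated start. The letters CCGGAAG, the core bound by ETS factors, stood on either strand in 36.1% of the promoters of these genes against 8.86% of all promoters, and the *Rpl31* line holds them in lower case. GGGCGG was found in 59.0% against 35.7%, AAGATGGC in 6.56% against 2.75% and TATAAA in 8.2% against 13.6%, each on either strand. These matches describe the letters and not the use of the start in the hippocampus.

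Values are log2 intensities after background correction and quantile normalization, and a difference of 1 is a doubling. On 7 arrays, which lay on 2 of the 10 slides, the 5th percentile of the deposited intensity was 314 to 860, against 99.7 to 240 on the other 53. Deviations from the group means were shared within a slide, with a mean correlation of 0.188 across probes against -0.017 between slides. The hippocampal markers *Wfs1*, *Prox1*, *Lct*, *Neurod6* and *Calb1* had mean log2 signals of 11.14, 9.81, 8.73, 6.84 and 6.27, those of *Neurod6* and *Calb1* being dim. Among neuronal markers the *Snap25* probe was near background at 6.50. *Syt1*, *Rbfox3*, *Slc17a7* and *Gad1* were at 15.13, 13.64, 12.88 and 12.43. Choroid plexus markers varied widely, and *Ttr* ranged from 10.97 to 15.94 over the 60 arrays.

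As a group the ribosomal protein probes were bright and steady. A mean intensity over 1000 was reached by 50 of the 61 (82%), against 14% of all probes. The SD over the 60 arrays had a median of 0.17 among the 61 genes and 0.24 among all probes. The highest probe signals were those of *Rpl23*, *Rps29*, *Rpl41*, *Rpl38* and *Rpl9*, with mean log2 values of 15.92, 15.56, 15.46, 15.34 and 15.22. *Rpl23*, whose protein also binds Mdm2, had the smallest SD (0.05) and a mean intensity of 62500, close to the highest intensity of any probe on an array (60449 to 70464), where further differences may not show. The next smallest SDs were those of *Rpl3* and *Rps29*, both 0.10. At the other end, *Rps20*, *Rpl17*, *Rpl39l*, *Rps23* and *Rpl14* had mean log2 values of 6.48, 6.51, 6.52, 6.54 and 6.55 and intensities of 209 to 216 on average. Signals of different probes depend on the probe and give no order of mRNA abundance, and values of these dim probes may be background. The largest SDs were those of *Rpl22l1* (0.35), *Rps3a1* (0.33) and the dim *Rps23* (0.28).

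To see the family on each array, the deviation of each gene from its mean over the 60 arrays was taken, and the median over the 61 genes was kept. This median lay between -0.17 and 0.26. The highest value, 0.26, was that of 1 array, memantine 2 h replicate 1, followed by saline 4 h at 0.20 and memantine 4 h at 0.15. The lowest were naive mice at 2 h (-0.17) and at 1 h (-0.14) and saline at 2 h (-0.13). By treatment the 12 arrays ranged from -0.17 to 0.07 with a median of -0.04 for naive mice and from -0.13 to 0.20 with a median of -0.01 for saline. Ketamine arrays lay between -0.04 and 0.13, memantine arrays between -0.08 and 0.26 and PCP arrays between -0.09 and 0.06, each with a median of 0.01. The ranges of all 5 treatments overlapped. The pooled SD within groups was 0.070. Slide 8 had a median of 0.09 over its 6 arrays, and the other slides had medians from -0.05 to 0.01.

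**Figure D1:**
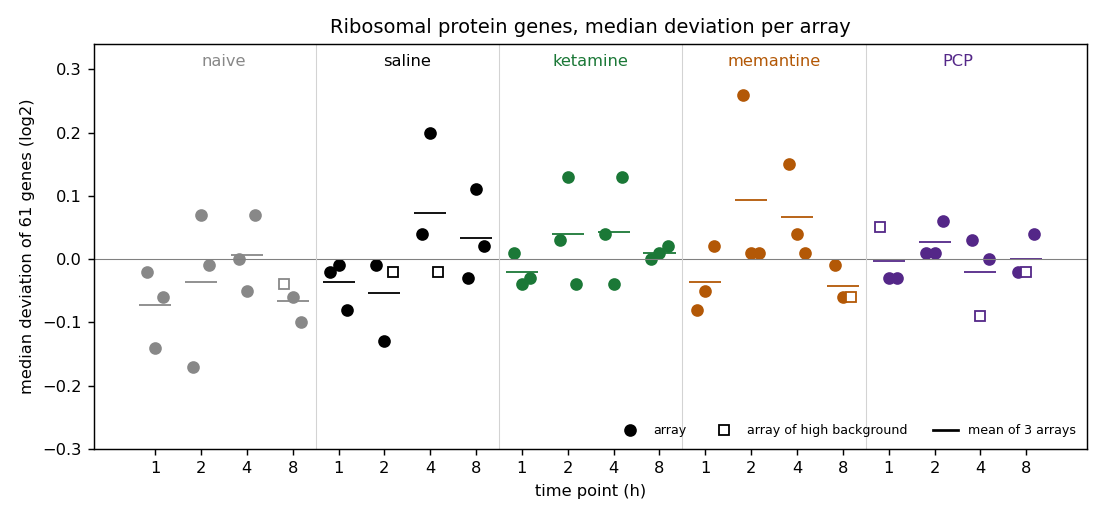
Median over 61 ribosomal protein genes of the log2 deviation from each gene's mean over 60 arrays, 1 point per array, by treatment and time. Horizontal bars are means of 3 arrays and open squares are the 7 arrays of high background. The memantine 2 h array at 0.26 stands above all others, and its 2 partners lie at 0.01.

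No ribosomal protein gene differed from saline at an adjusted p under 0.05 when the mean of the 4 times was taken for each drug. The count was 0 of 61 genes with ketamine, where 0.00221% of all probes were called, 0 of 61 with memantine (0.0243%) and 0 of 61 with PCP (0.00221%). At an unadjusted p under 0.05 the counts were 3 with ketamine, 0 with memantine and 3 with PCP, against 6.5%, 3.46% and 3.85% of all probes. The median change of the 61 genes was 0.009, 0.019 and -0.020 for ketamine, memantine and PCP, beside 0.003, 0.001 and 0.003 over all probes. Of the genes 33, 39 and 24 lay above 0, against 51%, 50.6% and 51.1% of all probes. The 95% interval of a gene's change reached a median of 0.15, 0.17 and 0.16 to either side. It lay within 0.5 of 0 on the log2 scale for 61, 60 and 59 of the 61 genes, and within 0.3 for 53, 54 and 54. Smaller changes lay within these intervals. The 5 choroid plexus markers were lower than saline over the 4 times, by medians of -0.828, -0.538 and -0.832, with 5, 2 and 3 of them at an unadjusted p under 0.05 and 0 called at an adjusted one. Their part in the values of the ribosomal protein genes was not tested. The drug by time interaction (limma F test) called 0 genes for each drug, as it did 0% of all probes, and at an unadjusted p under 0.05 it counted 0, 0 and 2 genes (2.35%, 3.26% and 3.47% of probes), the pair with PCP being *Rpl14* and *Rpl3l*, both with an adjusted p of 1.

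The genes with the most distant means over 4 times were in large part dim probes or paralogs. With ketamine, *Rps23*, a small subunit protein near the decoding site, ranged from 6.11 to 6.90 (median 6.38) over 12 arrays against 6.26 to 7.16 (median 6.54) in saline. The change was -0.25 ± 0.09 (SE; limma, adjusted p = 0.753), and the ranges overlapped. *Rpl39l*, a paralog of *Rpl39* best known from the testis, ranged from 6.15 to 6.67 against 6.30 to 6.82 in saline, a change of -0.21 ± 0.08 (adjusted p = 0.753). *Rpl3l*, the striated muscle paralog of *Rpl3*, ranged from 7.30 to 7.61 against 6.89 to 7.74, a change of 0.16 ± 0.07 (adjusted p = 0.753). The ketamine arrays of *Rpl3l* lay inside the range of the saline arrays. *Rpl29* (0.16 ± 0.10) and *Rps2* (0.12 ± 0.07), of the large and the small subunit, and *Rpl22l1* (-0.13 ± 0.12) followed, each with an unadjusted p over 0.1.

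With memantine, the most negative mean was that of *Rpl22l1*, a paralog of the RNA-binding *Rpl22*, at -0.31 ± 0.16. Its 12 memantine arrays ranged from 6.53 to 8.36 (median 7.74) and its saline arrays from 7.16 to 8.46 (median 7.95), so that the ranges overlapped. *Rps23* (-0.21 ± 0.11) and *Rps3a1* (-0.21 ± 0.13) came next, and *Rps9* (0.13 ± 0.08), *Rps19bp1* (0.10 ± 0.09) and *Rps2* (0.10 ± 0.07) were the most positive. None of these had an unadjusted p under 0.05. *Rps19bp1* codes for a binding partner of Rps19 and not for a ribosomal protein.

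With PCP, the largest mean difference was that of *Rps3a1*, a small subunit protein, and its probe was well above background. At 1 h its log2 values were 10.91, 10.33 and 10.77 with PCP against 11.07, 11.37 and 10.66 with saline. At 2 h they were 10.82, 10.33 and 10.59 against 10.78, 11.09 and 11.06, and at 4 h 10.97, 10.68 and 11.18 against 11.43, 11.25 and 10.94. At 8 h they were 10.75, 10.48 and 10.41 against 10.33, 11.39 and 10.77. The groups overlapped at every time, with saline 8 h holding both the lowest and nearly the highest saline value. The mean change was -0.33 ± 0.12 (95% interval -0.57 to -0.09, adjusted p = 1). *Rpl7a* (-0.21 ± 0.12) and *Rpl22l1* (-0.16 ± 0.13) were the next most negative, and the most positive were the dim *Rpl17* (0.27 ± 0.12), *Rps15a* (0.15 ± 0.07) and *Rps2* (0.13 ± 0.08). *Rps2* was among the 3 most positive genes with each drug. Since the same saline arrays enter all 3 comparisons, these are not independent.

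**Figure D2:**
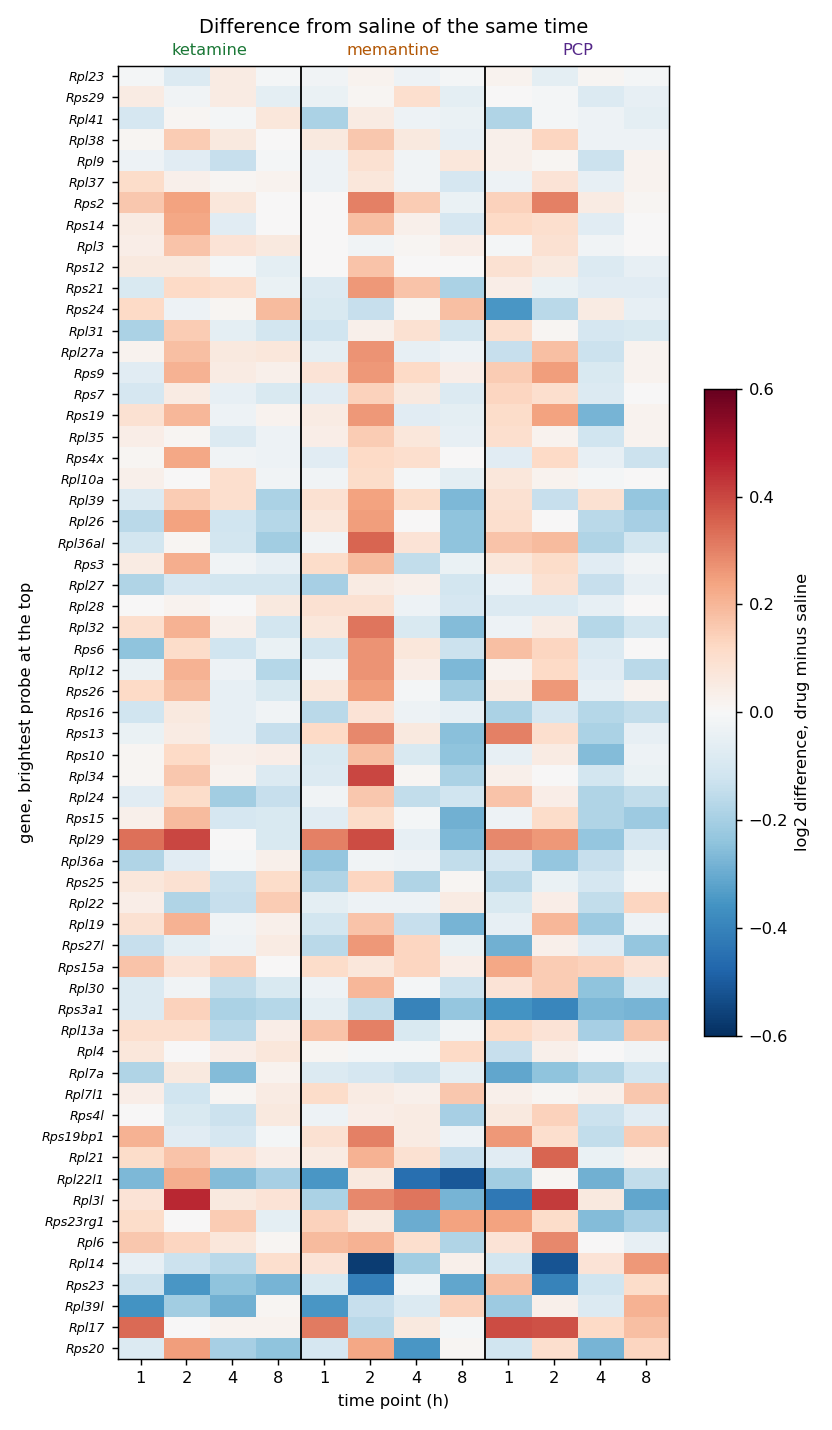
Log2 difference from saline of the same time for 61 genes (rows, brightest probe at the top) with ketamine, memantine and PCP at 1, 2, 4 and 8 h (columns), red for higher and blue for lower. The 2 h columns are mainly red, the memantine 8 h and PCP 4 h columns mainly blue, and the deepest single cells, such as *Rpl14* at -0.57, lie among the dim probes at the foot.

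At single times the medians of the genes stayed within 0.15 of 0 on the log2 scale and were highest at 2 h with each drug. At an adjusted p under 0.05 no ribosomal protein gene was called at any of the 12 drug and time points. With ketamine this was 0 of 61 at 1, 2, 4 and 8 h, where 0.00442%, 0.00221%, 0% and 0% of all probes were called. With memantine it was 0 of 61 at each time (0%, 0.0685%, 0.0133% and 0% of probes), and with PCP 0 of 61 (0%, 0%, 0.00221% and 0%). Unadjusted p-values under 0.05 counted 1, 1, 0 and 0 genes with ketamine (2.82%, 7.03%, 2.1% and 0.963% of probes), 1, 7, 1 and 1 with memantine (2.34%, 10.7%, 2.78% and 7.1%) and 3, 4, 1 and 0 with PCP (4.5%, 8.43%, 3.91% and 3.04%). The 95% interval of a single gene at a single time reached a median of 0.30 to either side (0.18 to 0.55), so that a difference of 0.3 in a typical gene could not be told from none.

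At 1 h the median change was 0.010 with ketamine, -0.025 with memantine and 0.029 with PCP, and 33, 25 and 35 genes lay above 0 (52.3%, 50% and 50.9% of all probes). Against naive mice of 1 h the medians were 0.065, 0.032 and 0.071, with 45, 40 and 41 genes above 0. Single genes lay between -0.36 and 0.34 with ketamine, -0.35 and 0.31 with memantine, and -0.43 and 0.39 with PCP. In each of the 3 comparisons the most positive gene was the dim *Rpl17*, at 0.34, 0.31 and 0.39. The most negative were *Rpl39l* with ketamine (-0.36), *Rpl22l1* with memantine (-0.35) and *Rpl3l* with PCP (-0.43). For *Rpl3l* the PCP arrays read 6.64, 7.03 and 7.26 and the saline arrays 7.43, 7.36 and 7.42, without overlap (adjusted p = 0.997). Groups of 3 did not overlap for 2 genes above saline and 1 below with ketamine (5.19% and 4.21% of probes), for 1 and 2 with memantine (3.33% and 3.03%) and for 3 and 3 with PCP (4.61% and 4.41%).

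At 2 h the median change was 0.091 with ketamine, 0.15 with memantine and 0.084 with PCP, beside 0.005, 0.004 and 0.006 over all probes and 0.006, 0.001 and 0.010 over the probes with an intensity over 1000. The genes above 0 numbered 43, 50 and 47 of 61, against 50.9%, 50.7% and 51.1% of all probes. Both subunits were on the same side, since in the large subunit 21, 23 and 23 of 30 genes lay above 0 and in the small subunit 19, 19 and 15 of 22. The drug and saline arrays did not overlap, the drug being higher, for 11 genes with ketamine (5.36% of all probes), 9 with memantine (6.42%) and 6 with PCP (6.27%). With the drug lower they did not overlap for 1, 0 and 1 genes (4.51%, 4.86% and 4.74%). The per-array median had a pooled SD within groups of 0.070. Within the 2 h groups its SD was 0.087 with ketamine, 0.142 with memantine, 0.026 with PCP and 0.062 with saline. These SDs describe single arrays and not the error of a difference between groups. The 3 saline arrays of 2 h, at -0.13 to -0.01 in that median, enter all 3 values. Set against the naive arrays of 2 h, the medians were 0.084, 0.14 and 0.068, with 41, 49 and 44 genes above 0.

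The memantine 2 h median rested in large part on 1 array. Without memantine 2 h replicate 1 it was 0.053, with 38 genes above 0 and 3 rather than 7 at an unadjusted p under 0.05. Leaving out saline 2 h replicate 1 gave 14 such genes and a median of 0.18. Ketamine at 2 h had a median of 0.065 to 0.12 over the single arrays left out and 0.046 with the slide as a block, and PCP at 2 h had 0.041 without saline 2 h replicate 2. On ketamine 2 h replicate 2, which had the highest per-array median of its group (0.13), the 4 striatal markers measured had a mean log2 signal of 11.98, against 8.91 and 9.18 on its partners and 8.63 to 9.09 on the saline arrays of 2 h. All 4 were higher than saline with ketamine at 2 h, at an unadjusted p under 0.05 and with 0 called at an adjusted one, by a median of 1.086. Without this array the ketamine median of the ribosomal protein genes was 0.068. The 5 choroid plexus markers had means of 8.61, 8.59 and 11.23 on the ketamine arrays of 2 h and 10.60, 10.41 and 8.52 on those of PCP. With memantine they had a mean of 9.19 on memantine 2 h replicate 1 against 11.32 and 11.22 on its partners and 10.46 to 10.96 on the saline arrays. The 5 neuronal markers had means of 11.94 to 12.10 with memantine and 12.11 to 12.25 with saline, the 5 astrocyte markers 12.74 to 12.86 and 12.80 to 13.18, the 5 microglial markers 8.96 to 9.05 and 9.14 to 9.18, and the 5 endothelial markers 8.81 to 8.98 and 9.09 to 9.10. Within each of these lists single markers went both ways against saline. The most negative and most positive were *Slc17a7* (-0.31) and *Rbfox3* (0.19) of neurons, and *Gfap* (-0.75) and *Slc1a3* (0.18) of astrocytes. For microglia they were *Cx3cr1* (-0.28) and *Aif1* (0.25), and for endothelium *Slco1a4* (-0.50) and *Flt1* (0.10). Oligodendrocyte markers had means of 12.84 to 13.29 with memantine and 12.88 to 13.34 with saline. The part of these marker differences in the changes of the ribosomal protein genes was not tested. Fewer cells of a type and less RNA per cell cannot be told apart in this tissue.

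**Figure D3:**
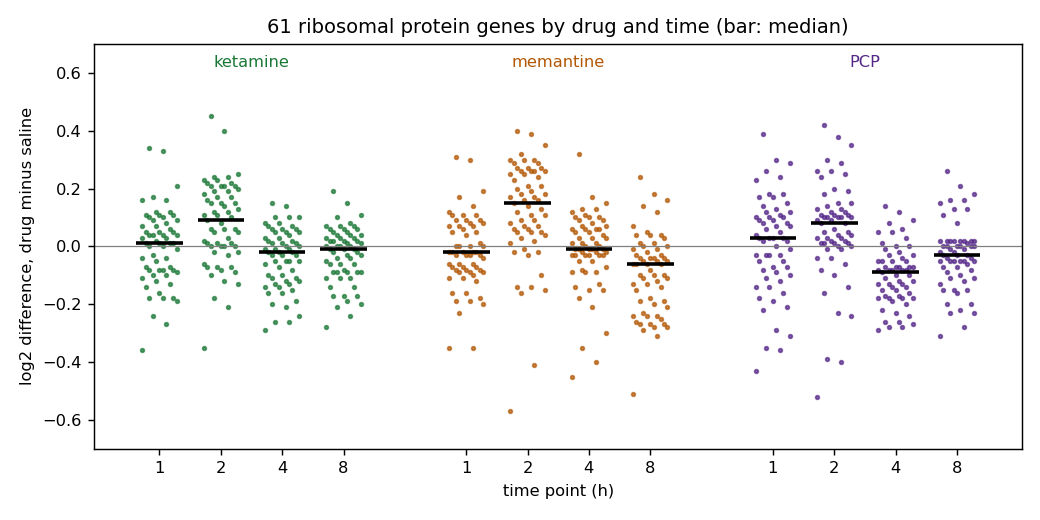
Log2 difference from saline of the same time, 1 point per gene (61 in each column), by drug and time, with a black bar at the median. The bars lie at 0.091, 0.15 and 0.084 at 2 h and at -0.064 with memantine at 8 h and -0.090 with PCP at 4 h, well inside the spread of the genes.

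*Rpl34*, of the large subunit, had the most positive change with memantine at 2 h. Its memantine arrays read 13.37, 12.87 and 13.00 and its saline arrays 12.66, 12.66 and 12.72. All 3 memantine arrays lay above the 3 of saline, and the change was 0.40 ± 0.15 (95% interval 0.09 to 0.71, limma, adjusted p = 0.324). With ketamine the 2 h arrays of *Rpl34* read 12.82, 12.93 and 12.77, also above saline, and with PCP 12.75, 12.71 and 12.59, which overlapped with it. In naive mice of 2 h they read 12.50, 12.64 and 12.73.

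*Rps2*, of the small subunit, read 15.15, 15.18 and 15.14 with memantine at 2 h and 15.23, 15.04 and 15.20 with PCP, against 14.94, 14.51 and 15.11 with saline. The saline value of 14.51 was the lowest of all 60 arrays, and the difference was 0.30 ± 0.12 with both memantine (adjusted p = 0.361) and PCP (adjusted p = 0.503). *Rpl12*, which forms the base of the ribosomal stalk and was singled out after its values were seen, read 13.60, 13.23 and 13.20 with memantine at 2 h against 13.13, 12.94 and 13.16 with saline. At 8 h it read 12.99, 13.22 and 13.05 against 13.33, 13.34 and 13.41. The arrays did not overlap at either time, and the sign turned from 0.27 ± 0.13 (adjusted p = 0.454) to -0.27 ± 0.13 (adjusted p = 0.69).

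*Rpl14*, of the large subunit, moved the other way on a dim probe. It read 6.76, 6.16 and 5.87 with memantine at 2 h and 6.18, 6.43 and 6.33 with PCP, against 7.05, 6.65 and 6.81 with saline. The memantine arrays overlapped with saline and the PCP arrays did not. The changes were -0.57 ± 0.17 (adjusted p = 0.198) and -0.52 ± 0.17 (adjusted p = 0.388), the most distant of all ribosomal protein genes in these comparisons. Naive mice at 2 h read 6.30, 6.46 and 6.62, below all 3 saline arrays. The most positive changes of ketamine and PCP at 2 h were those of *Rpl3l*, at 0.45 ± 0.19 (adjusted p = 0.656) and 0.42 ± 0.19 (adjusted p = 0.547), and the most negative of ketamine was that of *Rps23* at -0.35 ± 0.21.

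**Figure D4:**
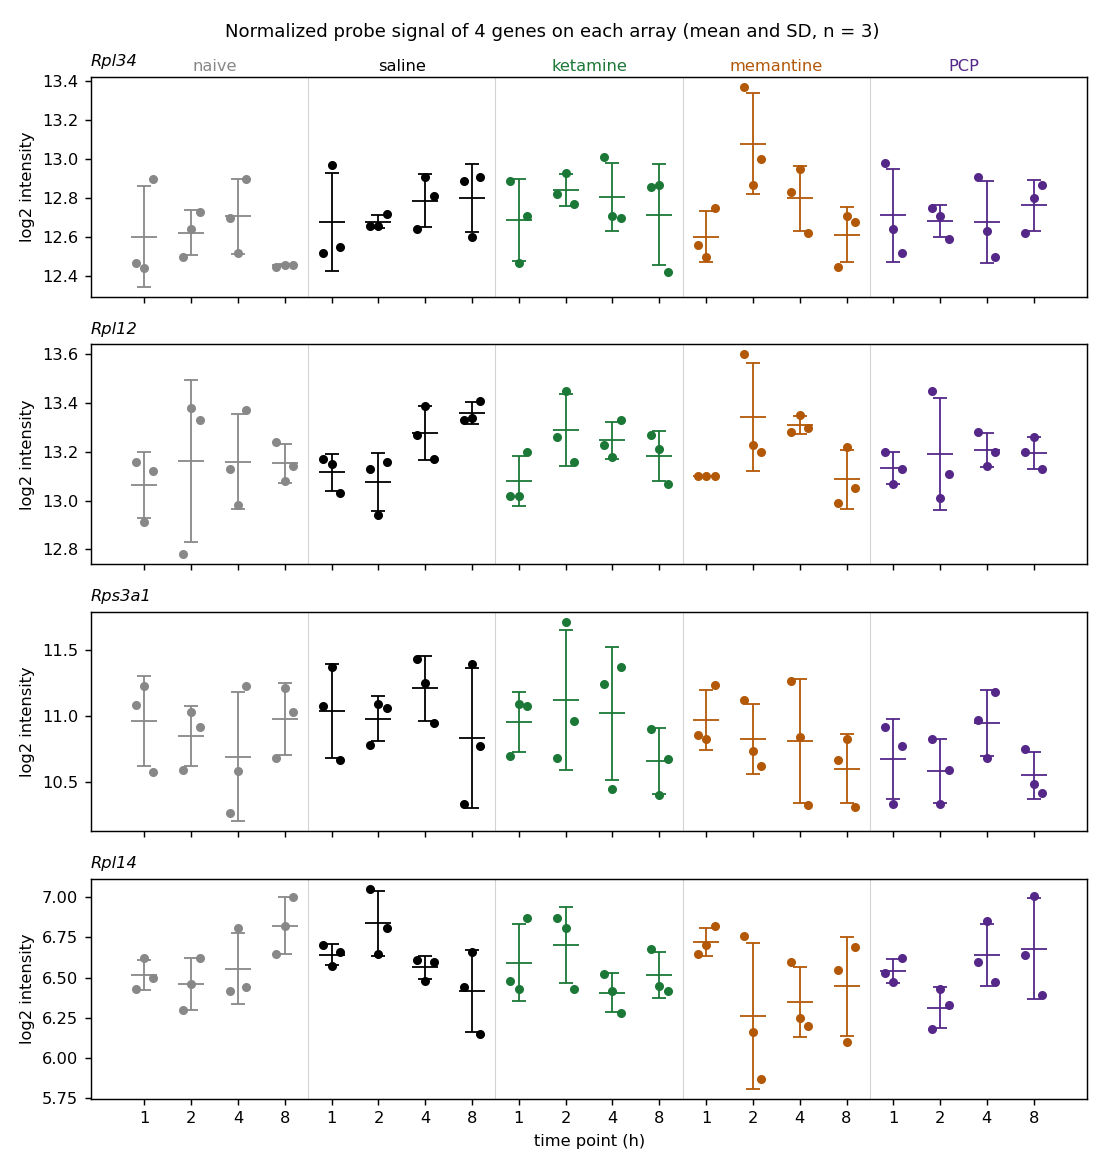
Normalized log2 probe signal of *Rpl34*, *Rpl12*, *Rps3a1* and *Rpl14* on each of the 60 arrays, by treatment and time, with the mean and SD of 3 arrays. *Rpl34* reaches 13.37 on 1 memantine 2 h array, *Rpl12* is higher at 2 h and lower at 8 h with memantine, and the axes differ between genes.

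At 4 h the median change was -0.023 with ketamine, -0.007 with memantine and -0.090 with PCP, with 25, 29 and 9 genes above 0 (50.1%, 50.6% and 49.5% of all probes). Against naive mice of 4 h the medians were 0.039, 0.084 and -0.036, with 35, 44 and 24 genes above 0, so that the sign with ketamine and memantine depended on the control group and the PCP median was nearer to 0. With PCP 4 of 30 large subunit genes and 3 of 22 small subunit genes lay above 0, and the changes ran from -0.29 (*Rpl22l1*) to 0.14 (*Rps15a*). Only *Rpl9* had PCP arrays that did not overlap with saline, and it was lower (3.63% of probes were lower in this way, and 3.19% higher with 0 genes). Without saline 4 h replicate 2, whose per-array median of 0.20 was the second highest of all, the PCP median was -0.051 and the memantine median 0.067. With ketamine 0 genes were higher without overlap and 2 lower (3.83% and 3.34% of probes), and with memantine 2 and 1 (3.97% and 4.02%). With memantine at 4 h the most negative gene was *Rpl22l1* (-0.45 ± 0.28) and the most positive *Rpl3l* (0.32 ± 0.19). Small subunit genes with memantine reached down to -0.40, and 3 of the 61 genes lay below -0.3. With ketamine *Rpl39l* was the most negative (-0.29 ± 0.16), and *Rps23rg1*, a retrocopy of *Rps23*, was the most positive (0.15 ± 0.19).

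At 8 h the median change was -0.012 with ketamine, -0.064 with memantine and -0.029 with PCP, with 26, 13 and 23 genes above 0 (49.8%, 48.6% and 49.7% of all probes). With memantine 8 genes were lower than saline without overlap and 0 were higher (4.19% and 4.07% of probes). These 8 were *Rpl12*, *Rpl28*, *Rpl29*, *Rpl32*, *Rpl36al*, *Rps13*, *Rps15* and *Rps23*, listed here after their values were seen. With PCP 5 were lower and 1 higher (4.23% and 4.02%), and with ketamine 2 and 1 (3.57% and 3.68%). Without saline 8 h replicate 2 the memantine median was -0.028 and 28 genes lay above 0. Against naive mice of 8 h the medians were 0.066, 0.013 and 0.068, with 48, 32 and 41 genes above 0, so that the sign of the 8 h medians depended on the control group. *Rpl22l1* was the most negative with memantine, where its arrays read 7.62, 7.73 and 6.53 against 7.75, 8.09 and 7.58 with saline (-0.51 ± 0.28, adjusted p = 0.735), with 1 array far below the rest. *Rpl14* and *Rps24* were the most positive with PCP (0.26 ± 0.17) and ketamine (0.19 ± 0.17), and *Rps23rg1* with memantine (0.24 ± 0.19). The most negative with ketamine and PCP were *Rps23* (-0.28 ± 0.21) and *Rpl3l* (-0.31 ± 0.19).

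The control comparisons had medians from 0.011 to 0.068, inside the range of the drug medians at single times. They lay below the 2 h medians of ketamine, memantine and PCP (0.091, 0.15 and 0.084). From 1 to 8 h after saline the median change was 0.068, with 41 of 61 genes above 0 (50.5% of all probes), and 0 genes were called at an adjusted p under 0.05 (0.0133% of probes) against 3 at an unadjusted p (3.33%). The most distant was *Rpl29*, which read 12.26, 12.01 and 11.94 at 1 h and 12.57, 12.77 and 12.47 at 8 h, a change of 0.53 ± 0.20 (adjusted p = 1). In naive mice the median from 1 to 8 h was 0.011 with 33 genes above 0 (49.3% of probes), and 0 genes were called (0.0155%), also 0 at an unadjusted p (7.99%). Saline was compared with naive mice over 24 arrays, and the median was 0.045 with 49 of 61 genes above 0 (49.4% of probes), of which 26 of 30 were in the large subunit and 15 of 22 in the small. Again 0 genes were called (0.00221%), and 0 at an unadjusted p (3.24%). The 5 choroid plexus markers were all higher in saline than in naive mice in this comparison, by a median of 0.859, with 5 at an unadjusted p under 0.05 and 1 called at an adjusted one. Their mean log2 signal ranged from 9.82 to 11.61 over the 12 saline arrays and from 8.00 to 11.31 over the 12 naive arrays, where the 3 arrays of 4 h lay at 8.07, 8.31 and 8.00. The part of these markers in the median of the ribosomal protein genes was not tested. The median was larger than that of any drug against saline over the 4 times.

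Paralogs were read with separate probes, whose signals give no order between them. *Rpl3* ranged from 14.58 to 15.05 and *Rpl3l* from 6.52 to 7.74, with SDs of 0.10 and 0.26. *Rpl22* ranged from 11.58 to 12.04 and *Rpl22l1* from 6.53 to 8.52, with SDs of 0.11 and 0.35. *Rpl39* and *Rpl39l* ranged from 13.30 to 14.28 and from 6.15 to 6.99, and *Rps4x* and *Rps4l*, which RefSeq lists as a transcribed pseudogene, from 13.60 to 14.16 and from 9.20 to 10.35. *Rpl36a* and *Rpl36al* were both well above background, at 11.78 to 12.73 and 12.95 to 14.04. *Rps27l*, a paralog induced by p53, ranged from 11.18 to 11.89 and *Rpl7l1* from 9.60 to 10.32, with no probe of the name *Rps27* or *Rpl7* to set beside them. *Rps19bp1* ranged from 8.17 to 9.40. *Rps6*, the ribosomal substrate of the S6 kinases, ranged from 12.73 to 13.53. At 2 h *Rps6* read 13.50, 13.39 and 13.24 with memantine, 13.47, 13.06 and 13.14 with ketamine and 13.42, 13.10 and 13.21 with PCP against 13.11, 12.98 and 13.25 with saline, with overlap in each case.

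Within groups many of the genes varied together from array to array. Over deviations from the group means on 60 arrays, the mean Pearson correlation between pairs of the 50 brighter genes was 0.190, against 0.003 between pairs of all 6353 probes of that brightness. It was 0.203 with the slide means removed as well and 0.193 without the 7 arrays of high background, and 74.4% of the pairs lay above 0. These points share arrays, slides and hybridizations, and the values are descriptions. Each of the 61 genes was also correlated with the median of the brighter genes, itself left out. This correlation was 0.5 or more for 23 of the 61 genes and below 0 for 7. It was highest for *Rpl24* (0.83) and *Rpl19* (0.82), and the closest pairs were *Rpl24* with *Rpl27* and *Rpl19* with *Rps15*, both at 0.82. Both were picked with their values in view, as were the pairs that opposed each other, *Rps24* with *Rps6* at -0.70 and with *Rps9* at -0.69. The most negative correlations were those of *Rps15a* (-0.35), *Rpl4* (-0.24) and the dim *Rpl39l* (-0.24) and *Rpl3l* (-0.23). *Rpl24*, with no pyrimidine run in the printed window, and *Rps15a*, with a run of 8 letters, lay at the opposite ends. The 27 brighter genes with a run of 7 or more letters had a median correlation of 0.44 and the 16 without one 0.5.

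**Figure D5:**
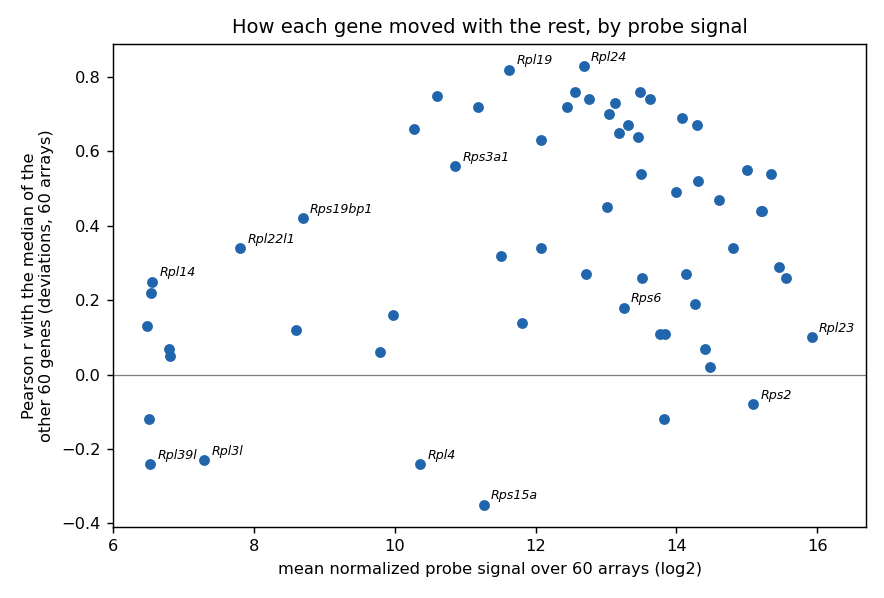
Pearson correlation of each gene with the median of the other genes of mean intensity over 1000, against the mean log2 signal of its probe. Deviations are from group means on 60 arrays. The reference is these brighter genes alone, although the axis label speaks of the other 60 genes. The highest values are those of *Rpl24* (0.83, mean signal 12.68) and *Rpl19* (0.82, mean signal 11.62). The 11 genes whose probes do not exceed a mean intensity of 1000 lie between -0.24 and 0.42.

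Probes of 1 gene did not always follow each other. For 19 genes with several probes, the 28 further probes correlated with the brightest one at a median of 0.21, from -0.29 (*Rps13*) to 0.83 (*Rps9*), and the 12 further probes that were over 1000 in intensity at a median of 0.28. The mean of all probes of a gene gave a median of 0.052 rather than 0.084 for PCP at 2 h.

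Other genes of the translation machinery were counted in the same fits, from lists that earlier results of these data may have shaped. Of 23 translation factors with a TOP start and of 32 ribosome biogenesis genes none was called at an adjusted p under 0.05 in any comparison of a drug with saline. At 2 h their medians were -0.008, -0.067 and 0.003 and 0.053, 0.030 and 0.037 with ketamine, memantine and PCP. The unadjusted counts at 2 h were 1, 4 and 2 and 2, 1 and 4, where 7.03%, 10.7% and 8.43% of all probes were counted. The 4 measured genes of the other parts of the cytosolic ribosome and the 9 transcription factors of ribosomal protein promoters also had 0 called, and 0 at an unadjusted p at 2 h. The 76 mitochondrial ribosomal proteins, which build the separate ribosome of the mitochondria, had 0 called and a course with medians of 0.076, 0.16 and 0.076 at 2 h, 57, 64 and 51 of them being above 0. Of all probes 50.9%, 50.7% and 51.1% lay above 0 at 2 h. The unadjusted counts of these 76 genes at 2 h were 6, 19 and 4, against the same 7.03%, 10.7% and 8.43% of all probes. With memantine at 8 h their median was -0.061. Their values without memantine 2 h replicate 1 were not tested. Among 15 genes of TOP mRNA and S6 signalling, *Ddit4*, an inhibitor of mTOR complex 1 that responds to stress and glucocorticoids, rose with memantine by 1.30 ± 0.19 at 2 h (adjusted p = 0.000104) and by 0.64 ± 0.09 over the 4 times (adjusted p = 0.00448). Its changes at 2 h were 0.84 ± 0.19 with PCP (adjusted p = 0.175) and 0.53 ± 0.19 with ketamine (adjusted p = 0.556).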

How the data were processed

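Intensities of 60 hippocampal arrays were deposited as mean bead signals on a linear scale, which the authors took from BeadStudio 3.0 (the labels also name BeadArray 2.14.1), neither background subtracted nor normalized. The authors also deposited normalized log2 values, used here as an alternative. The normexp background correction (offset 50) of limma 3.58.1 (R 4.3.3) was applied to the intensities, which were then quantile normalized and taken to log2. None of the 45281 probes was filtered out. No other columns were left out (0 columns of no sample).

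limma models of the group means, with moderated variances, were fitted to all probes. The mean change over 4 times and the interaction used the 24 arrays of a drug and saline, single times used all 60 arrays, and p-values were adjusted over all probes by Benjamini-Hochberg. The number of arrays limits the precision. The fits were checked on simulated data.

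Symbols came from the platform annotation, where 34885 probes carry 1 symbol and 18 carry several, and 0 symbols of these genes needed an update from RefSeq. Named genes are, for each drug, the 3 most positive and 3 most negative means over 4 times, the most positive and most negative at each time, the 5 brightest and 5 dimmest, the 3 largest and 3 smallest SDs, the paralog pairs, *Rps6* and *Rps19bp1*, and members of other lists past an adjusted p of 0.05. The genes, lists and rules were chosen with earlier results of these data known. Replicate numbers did not pair the arrays and were not used. Alternatives were no background correction, an offset of 16, median scaling, the authors' values, the brighter 50% of probes, the mean of all probes of a gene, trended and robust variances, the slide or replicate number as a block, the fit without the 7 arrays of high background, with the old normalization or a new one, and without each array in turn. The brighter genes alone and naive mice as control were added after seeing the data.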

Additional observations from a re-analysis of the deposited data

How the results depend on the processing

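No ribosomal protein gene was called at an adjusted p under 0.05 in any of the 21 comparisons under any alternative. The median changes of the 61 genes moved beyond the spread between arrays mainly when arrays were scaled to a common median in place of quantile normalization. With that scaling they were 0.314 for ketamine over 4 times and 0.219, 0.495, 0.476 and 0.0677 at 1, 2, 4 and 8 h, 0.494, 0.282 and -0.478 for memantine at 2, 4 and 8 h, -0.0924 for PCP over 4 times and -0.196, 0.338 and -0.505 at 1, 2 and 8 h, and -0.576 for naive mice from 1 to 8 h. All probes with an intensity over 1000 moved with them, by medians of 0.332, 0.239, 0.428, 0.509 and 0.148, of 0.291, 0.298 and -0.346, of -0.0958, -0.257, 0.256 and -0.473, and of -0.602 in the same order, so under this scaling the ribosomal protein genes are to be read against them. They lay above these medians at 2 h with each drug, and below them with memantine at 8 h and with PCP at 4 h (-0.0452 against 0.0768).

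With naive mice of the same time as the control, medians turned to 0.0389 and 0.066 for ketamine at 4 and 8 h, 0.0316, 0.0841 and 0.0126 for memantine at 1, 4 and 8 h and 0.0683 for PCP at 8 h. Without a change of sign they moved to 0.0653 and 0.071 for ketamine and PCP at 1 h and to -0.0364 for PCP at 4 h. Leaving out 1 array gave 0.0528 to 0.201 for memantine at 2 h, lowest without memantine 2 h replicate 1, and -0.0384 to 0.0674 for memantine at 4 h, highest without saline 4 h replicate 2. Medians near 0 changed sign when single arrays were left out, namely those of ketamine over 4 times and at 1, 4 and 8 h, memantine over 4 times and at 1 and 4 h, PCP at 1 and 8 h and naive mice from 1 to 8 h. PCP at 1 h, 0.029, was -0.015 without its array of high background, replicate 1.

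Replicate numbers did not pair the arrays. Arrays of the same number in other groups had a mean correlation of deviations of -0.011, against 0.006 for other numbers, and 5 of 60 arrays lay closest to their own number. With the replicate number as a block 0 genes were called in each comparison, as without it, and the medians were the same.

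What limits these values is the number of arrays, the dim probes of 11 genes and the brightest probe, *Rpl23*, near the top of the scale.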
